A study of Arabidopsis thaliana with 4 samples.

Results

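The genes described here encode AT5G43450 and its close relatives among the 2-oxoglutarate-dependent dioxygenases of Arabidopsis thaliana. Of 13286 genes measured by name on the arrays, 10 belong to this set, and all 10 genes listed for it had exactly 1 probe set assigned to that gene alone. The set was drawn up around AT5G43450 because its transcript differed so widely between low and normal oxygen. That difference and those of its relatives in the same contrast are therefore given as a description, without a test. The probe table and the RefSeq gene table name these genes by locus code only, so their enzyme class is background knowledge.

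Transcript levels were measured with Affymetrix arrays in roots of 3-week-old seedlings of the laboratory accession Col-0, with 2 arrays at normal oxygen and 2 at low oxygen. Each array carried RNA from a separate pool of 5 seedlings from a single dish, so a value is an average over all root cell types of several plants. Every seedling had been moved from agar plates into liquid medium with 3% sucrose for 24 hours and was then held in a foil-covered canister for 5 hours. Low oxygen canisters were flushed with gas of 0.1% oxygen in nitrogen and sealed, while normal oxygen canisters stayed unsealed, so the effects of flushing and sealing cannot be told apart from that of oxygen. All plants were wild type.

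Dioxygenases of this class bind iron, use molecular oxygen and 2-oxoglutarate together, and release succinate and carbon dioxide while they oxidise a further substrate. Plants have many of them, and they make or inactivate hormones, flavonoids, coumarins and glucosinolates. The relatives of AT5G43450 resemble ACC oxidase, the enzyme that releases ethylene, closely enough to have been annotated as its homologs, but they form a branch of their own. GSL-OH, encoded by AT2G25450 and placed on the same branch, hydroxylates an aliphatic glucosinolate side chain. Because oxygen is a substrate of these enzymes, a transcript level under low oxygen says nothing about how much product is made.

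The values are log2 RMA expression values, in which 1 unit is a doubling of signal, and differences are low minus normal oxygen. Levels of different probe sets depend on their probes and were not ranked against each other. The array medians lay between 6.33 and 6.36 and the lower quartiles between 4.45 and 4.48. With 4 arrays in all, precision was low throughout. Among known root genes, 3 of 8 on a short list were measured by name, and all 3 were above the array median on every array and lower at low oxygen. PYK10, a root beta-glucosidase gene, went from 13.54 to 12.87 (limma adjusted p = 0.0049). The root hair genes EXPA7 and EXPA18 went from 9.86 to 7.36 (adjusted p = 5.1e-05) and from 10.67 to 7.14 (adjusted p = 1.2e-04). Of 8 shoot marker genes, 1 had a named probe set, that for Rubisco activase (RCA), which stood between 6.79 and 7.11 at normal oxygen and between 8.14 and 8.37 at low oxygen. The part of these root, root hair and shoot marker changes in the differences below was not tested. In pooled root RNA, fewer cells of a type and less RNA per cell cannot be told apart.

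AT5G43450 was the gene of the set with the widest difference. It stood at 4.58 and 4.69 on the normal oxygen arrays and at 10.00 and 10.16 on the low oxygen arrays. Both normal oxygen values lay only just above the arrays' lower quartile, and both low oxygen values were far above them. The log2 difference was 5.45 (SE 0.11), which ranked 16 from the top among 22746 probe sets. The replicates differed by 0.11 and 0.16 within the groups, so the difference was many times their spread. No fold is given, since signal over background was limited at normal oxygen. Leaving out each array in turn kept the difference between 5.37 and 5.53.

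AT5G43440, the protein-coding gene next to AT5G43450 on chromosome 5, did not share this pattern. Its values were 4.18 and 4.21 at normal oxygen and 4.16 and 4.47 at low oxygen, and the groups overlapped. On 3 of the 4 arrays it was below the lower quartile of all probe sets, where a change of a weak transcript would be hard to see. Its log2 difference was 0.12 (SE 0.13). The differences of the neighbours were 5.33 apart (SE 0.17). SEs of gaps between genes, here and below, treat the genes as independent although they share the 4 arrays. Such an SE can therefore be too small or too large.

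**Figure D1:**
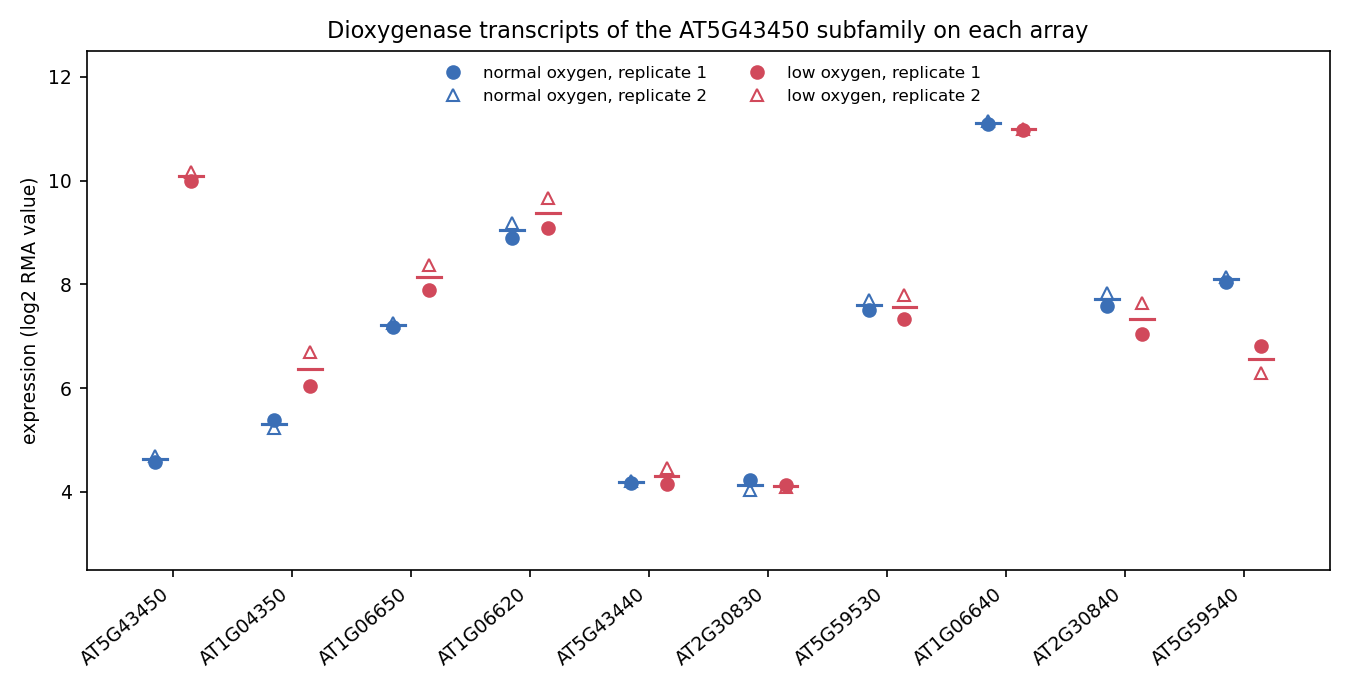
Expression of the 10 dioxygenase genes on each of the 4 arrays, as log2 RMA values, ordered by the difference between the groups. Circles are replicate 1, triangles replicate 2, blue is normal oxygen, red is low oxygen, and short lines are group means. AT5G43450 goes from 4.64 to 10.08, while AT5G43440 and AT2G30830 stay between 4.03 and 4.47 on every array.

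After AT5G43450, the higher levels at low oxygen were those of AT1G04350 and AT1G06650, both on chromosome 1. AT1G04350 stood at 5.38 and 5.23 at normal oxygen and at 6.04 and 6.69 at low oxygen. The groups did not overlap, but its low oxygen replicates differed by 0.65, the widest gap among the 10 genes. Its log2 difference was 1.06 (SE 0.21). Dropping low oxygen replicate 2 gave 0.73, and dropping replicate 1 gave 1.38.

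AT1G06650 stood at 7.17 and 7.26 at normal oxygen and at 7.90 and 8.37 at low oxygen. Both low oxygen arrays were above both normal oxygen arrays. The log2 difference of 0.92 (SE 0.16) is a 1.89-fold higher signal. It was 0.68 without low oxygen replicate 2 and 1.15 without low oxygen replicate 1.

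AT5G59540, on chromosome 5, went the other way. It stood at 8.05 and 8.14 at normal oxygen and at 6.81 and 6.30 at low oxygen, so both low oxygen arrays were well below the others. The log2 difference was -1.54 (SE 0.17), a 2.90-fold lower signal, and 460th from the bottom among all probe sets. Its direct neighbour AT5G59530 stood at 7.51 and 7.69 at normal oxygen and at 7.34 and 7.80 at low oxygen. There the low oxygen values enclosed the normal oxygen values, and the difference was -0.02 (SE 0.17). The neighbours' differences were 1.51 apart (SE 0.24). From low oxygen replicate 1 to replicate 2, AT5G59530 went up and AT5G59540 went down, which the SE of that gap leaves out.

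The remaining genes had differences between -0.37 and 0.34, with clear signal in some cases and hardly any in others. AT1G06640 gave strong signal on all 4 arrays, at 11.08 and 11.15 and then at 10.97 and 11.00. Its groups did not overlap, yet the log2 difference was only -0.12 (SE 0.10). AT1G06620 stood at 8.89 and 9.19 at normal oxygen and at 9.09 and 9.67 at low oxygen, with overlapping groups and a difference of 0.34 (SE 0.20). That value hung on low oxygen replicate 2, without which it was 0.04.

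AT2G30840 stood at 7.58 and 7.84 at normal oxygen and at 7.04 and 7.64 at low oxygen. Its groups overlapped, and its difference of -0.37 (SE 0.20) was -0.67 without low oxygen replicate 1 and -0.07 without low oxygen replicate 2. AT2G30830, its neighbour on chromosome 2, stood at 4.23 and 4.03 and then at 4.14 and 4.10. It was below the lower quartile on all 4 arrays, and its difference was -0.01 (SE 0.11).

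Ordered by difference, the 10 genes formed a wide middle group with few genes outside it. The order was set by these same differences, so the gaps are a description and were not tested. AT5G43450 lay 4.39 above the next gene, AT1G04350 (SE of the gap 0.23). AT1G04350 and AT1G06650 were 0.14 apart (SE 0.26), which is within their spread. AT1G06650 lay 0.58 above AT1G06620 (SE 0.26). From AT1G06620 down through AT5G43440, AT2G30830, AT5G59530 and AT1G06640 to AT2G30840, no step to the next gene was over 0.25. AT5G59540 then lay 1.17 below AT2G30840 (SE 0.26).

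**Figure D2:**
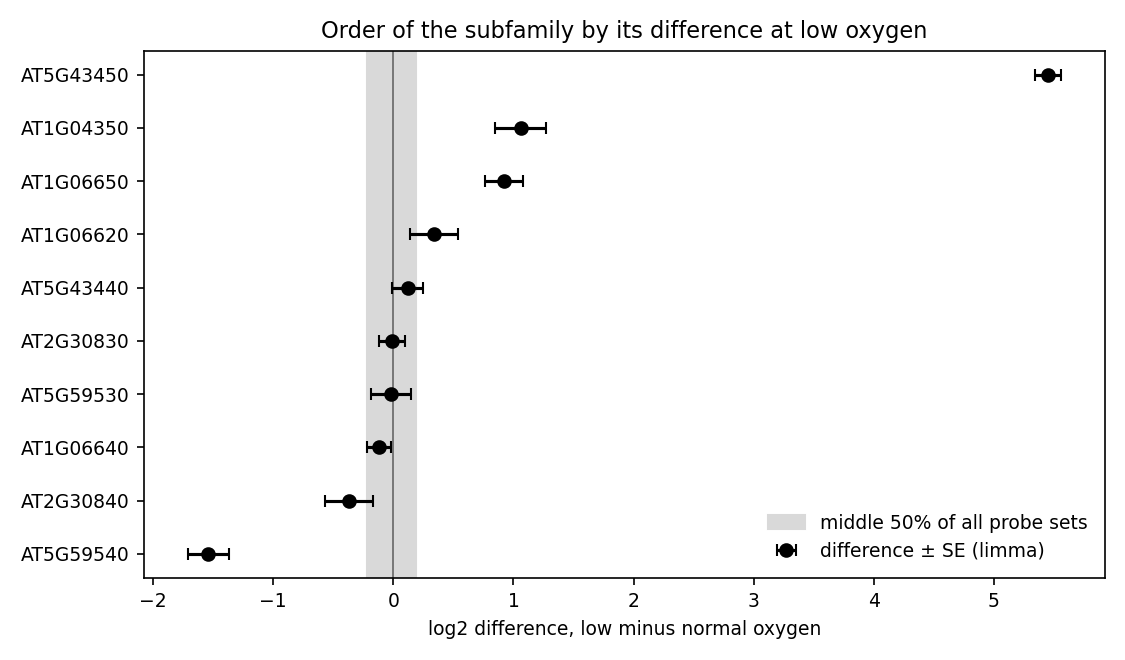
Log2 difference between low and normal oxygen for each of the 10 genes, with the SE from limma's fit over all probe sets as error bars. The grey band holds the middle 50% of all probe sets, from -0.22 to 0.19. AT5G43450 at 5.45 and AT5G59540 at -1.54 lie at the ends.

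Taken as a list, the genes had no common direction. Their median log2 difference was 0.06, against 0.00 over all probe sets, and it was -0.01 without AT5G43450. The median size of the difference was 0.35, or 0.34 without AT5G43450. It was 0.21 over all probe sets and 0.18 over those assigned to a single gene. The groups did not overlap for 5 of the 10, of which 3 were higher and 2 lower at low oxygen, whereas 64.5% of all probe sets had groups that did not overlap. In limma's fit over all probe sets, 4 of the 10 (AT5G43450, AT1G04350, AT1G06650 and AT5G59540) were past the Benjamini-Hochberg threshold of 0.05, where 33.4% of all probe sets were. This contrast was used to draw up the set, so nothing is read from that count or from the median size. By direction, groups that did not overlap made up 31.4% of all probe sets for higher and 33.1% for lower levels at low oxygen.

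For most of these genes the replicates differed more at low oxygen than at normal oxygen, but not for AT1G06640 and AT2G30830. The median gap between the low oxygen replicates was 0.47 over the 10 genes, against 0.12 over all probe sets. Between the normal oxygen replicates it was 0.13, against 0.12 over all probe sets. At low oxygen, replicate 2 gave the higher value for 8 of the 10 genes, all but AT5G59540 and AT2G30830, while it did so for 42.1% of all probe sets. At normal oxygen replicate 2 was also the higher for 8 of the 10, against 45.7% of all probe sets. AT5G59540, the gene with the lower level at low oxygen, was lower still on replicate 2. For AT1G04350, AT1G06650 and AT5G59540, low oxygen replicate 2 was thus the array farther from normal oxygen.

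Most of these genes lie beside relatives on the chromosome, and some neighbours differed widely from each other. In the RefSeq gene order, 6 of the 10 have another of the 10 as a direct protein-coding neighbour, in the pairs on chromosomes 2 and 5 described above. On chromosome 1, AT1G06620, AT1G06640 and AT1G06650 are interleaved with AT1G06630 and AT1G06645, and the last is a relative with no value by name. AT1G06650 was 1.04 above AT1G06640 in its difference (SE 0.19), and AT1G06620 was 0.46 above it (SE 0.23). On chromosome 2, AT2G30830 was 0.36 above AT2G30840 (SE 0.23), and the groups of both genes overlapped.

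Directly flanking genes outside the set were examined because of this layout, after their values had been seen. Of 12 such genes, 5 were measured by name, with differences from -0.39 to 1.58. The genes on either side of the AT5G43440 and AT5G43450 pair were ETFBETA (AT5G43430), an electron transfer flavoprotein subunit gene, at 0.37 (SE 0.11), and AT5G43460 at 0.09 (SE 0.12). The wide difference of AT5G43450 was thus not shared by the measured genes beside it. AT1G06630, between AT1G06620 and AT1G06640, stood at 6.95 and 7.06 at normal oxygen and at 8.50 and 8.67 at low oxygen, a difference of 1.58 (SE 0.11) that was wider than that of either gene beside it.

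**Figure D3:**
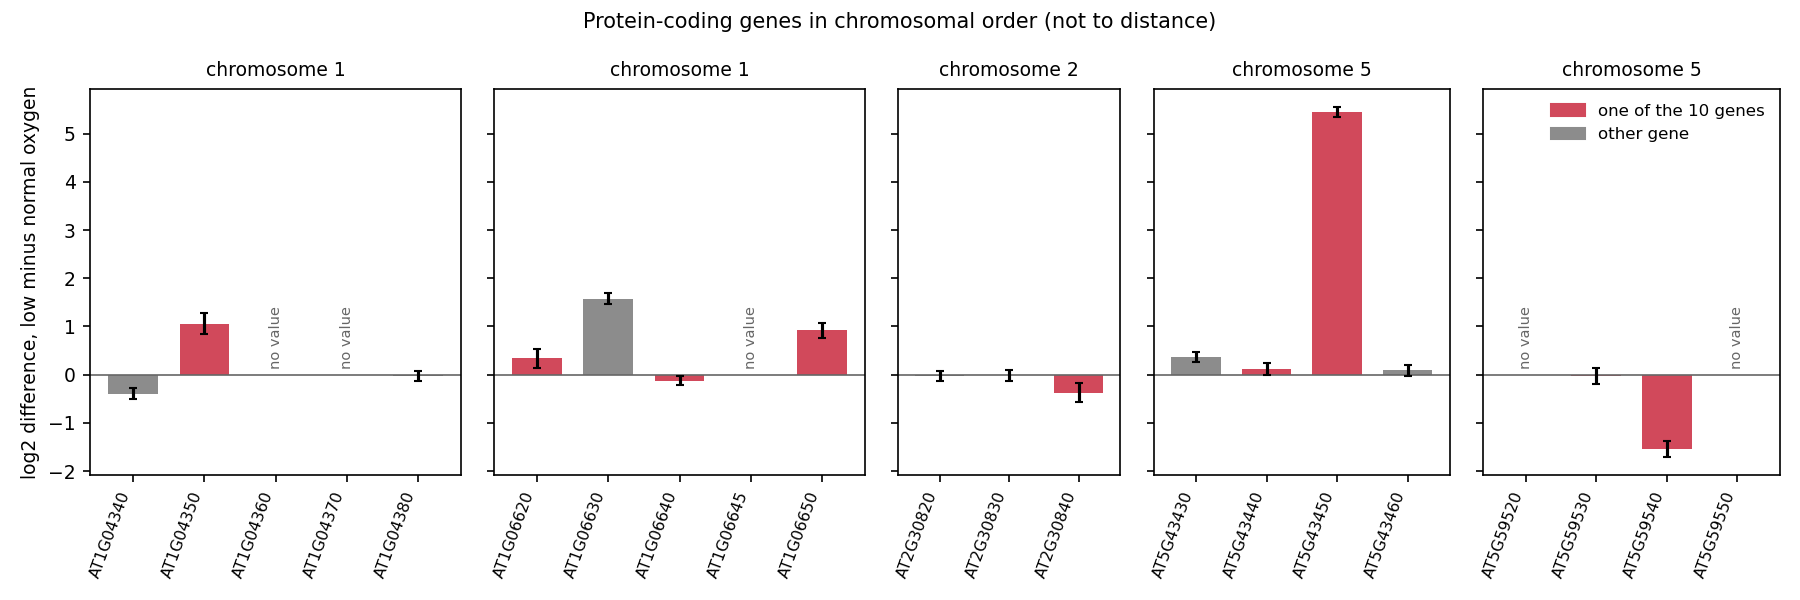
Log2 difference between low and normal oxygen for protein-coding genes in their order along chromosomes 1, 2 and 5, with SEs from limma as error bars. Red bars are the 10 dioxygenase genes, grey bars other genes, and distances are not drawn. AT5G43450 (5.45) stands alone between AT5G43440 (0.12) and AT5G43460 (0.09), and AT5G59540 (-1.54) lies beside AT5G59530 (-0.02).

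The genes whose 4-array pattern was most like that of AT5G43450 came from outside its family. Likeness was the Euclidean distance between log2 values over the 4 arrays after each probe set was centred on its mean, with 13285 other genes compared. With so few arrays, this distance mostly follows the gap between low minus normal differences. It thus largely repeats the contrast that singled out AT5G43450 and is no separate evidence on its pattern. The 5 nearest were AT4G33666 (distance 0.25), AT3G54520 (0.37), AT5G48430 (0.38), AT2G17850 (0.48), a rhodanese-domain gene, and ASPGB1 (0.54), an asparaginase gene. AT4G33666 stood at 5.27 and 5.11 at normal oxygen and at 10.59 and 10.55 at low oxygen. Within the family the nearest was AT1G04350, at a distance of 4.41 and rank 561, and the farthest was AT5G59540, at 7.00.

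Of 6 further genes placed on the same branch, 5 were measured by name, 1 rose, 1 fell and 3 did not pass. At the same threshold, 15.8% of all probe sets rose and 17.6% fell. The gene 2A6 (AT1G03410) fell from 8.94 and 9.30 at normal oxygen to 8.51 and 8.63 at low oxygen, which is -0.55 on the log2 scale (SE 0.14, limma adjusted p = 0.0237). Its second probe set, with weaker signal, gave -0.45 (SE 0.14). It no longer passed when normal oxygen replicate 2 was dropped (-0.37, adjusted p = 0.0834). The same held when either low oxygen array was dropped, with -0.49 for replicate 1 (adjusted p = 0.1338) and -0.61 for replicate 2 (adjusted p = 0.0764), and over 10 alternatives the lowest adjusted p was 0.0043.

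AT2G25450, the GSL-OH gene, had strong signal and rose slightly, from 11.34 and 11.17 to 11.53 and 11.73 (log2 change 0.38, SE 0.12, limma adjusted p = 0.0493). The rise was small and the call was lost under 6 of 10 alternatives, with adjusted p between 0.0362 and 0.2355. Dropping normal oxygen replicate 2 gave 0.29 (adjusted p = 0.1873). Dropping low oxygen replicate 1 gave 0.48 (adjusted p = 0.0652), and dropping replicate 2 gave 0.28 (adjusted p = 0.2355). AT1G03400, AT1G04380 and AT3G61400 had weak signal in both groups, with means from 3.55 to 4.66 and differences of 0.16, -0.02 and -0.10 (adjusted p = 0.3287, 0.9171 and 0.5092).

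Dioxygenase families outside this branch were compared through 12 lists of 68 genes, of which 22 genes in 7 lists were measured by name. Of these 22, 7 rose, 4 fell and 11 did not pass limma's test, with a median log2 difference of 0.03. With the 5 genes of the same branch added, 13 of 27 passed, or 48.1%, against 33.4% of all probe sets. Of the 27, 8 rose, or 29.6%, against 15.8% of all probe sets, and 5 fell, or 18.5%, against 17.6%. The 27 were read from probe sets assigned to a single gene. Of the 13436 such probe sets, 4099 passed, 1921 of them higher and 2178 lower at low oxygen. The lists were chosen with earlier results of these data known, so nothing is read about dioxygenases from these shares. The count of 13 dropped to 8 without low oxygen replicate 2. No gibberellin oxidase, flavonoid, salicylate hydroxylase, strigolactone or plant cysteine oxidase gene on the lists was measured by name.

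Some transcripts for enzymes that hydroxylate proline in cell wall proteins were among those that rose. Of 8 measured prolyl 4-hydroxylase genes, 3 rose and 5 did not pass, where 33.4% of all probe sets passed in either direction. The median log2 difference of the 8 was -0.05, so the list as a whole did not rise. AT1G20270 rose from 5.96 and 6.46 to 7.57 and 7.65 (log2 change 1.40, SE 0.17, limma adjusted p = 9.2e-04). AT3G28480 rose from 8.61 and 8.84 to 10.02 and 10.19 (log2 change 1.38, SE 0.12, limma adjusted p = 2.5e-04). The third was AT4G33910, with a change of 1.26 (SE 0.12). The 5 others had differences from -0.27 to 0.04.

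Of the 4 jasmonate hydroxylase genes, whose products inactivate the hormone jasmonate, 3 rose and 1 did not pass. Over all probe sets, 15.8% rose and 33.4% passed in either direction. AT2G38240 rose from 5.89 and 5.28 to 6.54 and 6.93 (log2 change 1.15, SE 0.22, limma adjusted p = 0.0069). Without low oxygen replicate 2 its change was 0.95 and the call ended (adjusted p = 0.0587, the highest of 10 alternatives that began at 0.0005). AT5G05600 rose from 9.31 and 9.47 to 9.98 and 10.85 (log2 change 1.03, SE 0.26, limma adjusted p = 0.0231). That change was 0.59 when low oxygen replicate 2 was dropped and 1.46 when replicate 1 was. As for many of the AT5G43450 relatives, low oxygen replicate 2 was the higher array for all 4 of these genes. AT3G55970, named JRG21 in the gene table, was the third that rose, and AT3G11180 was weak in both groups, at 4.45 and 4.43. The JRG21 call (0.53, adjusted p = 0.0346) ended without normal oxygen replicate 2 (0.39, adjusted p = 0.1224) and without low oxygen replicate 2 (0.37, adjusted p = 0.1862).

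The auxin oxidase neighbours moved in opposite directions. AT1G14130, the DAO1 gene of auxin inactivation, rose from 7.07 and 7.28 to 7.84 and 8.09 (log2 change 0.79, SE 0.13, limma adjusted p = 0.0037). AT1G14120, its close relative DAO2, fell from 7.77 and 8.55 to 6.09 and 5.92 (log2 change -2.16, SE 0.24, limma adjusted p = 6.4e-04). Their differences thus had opposite signs, whereas in the AT5G59530 and AT5G59540 pair one value was near 0.

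Of the coumarin list 2 of 3 measured genes fell, as did 1 of 2 of the AOP glucosinolate genes, and the others did not pass. Among all probe sets, 17.6% fell and 33.4% passed in either direction. AT1G55290, which encodes a feruloyl-CoA hydroxylase of coumarin synthesis, fell from 7.82 and 7.77 to 5.99 and 6.02 (log2 change -1.79, SE 0.10, limma adjusted p = 3.5e-05). Its paralog AT3G13610, the main such gene in roots, fell from 11.49 and 11.76 to 11.12 and 10.92 (log2 change -0.60, SE 0.13, limma adjusted p = 0.0120), but did not pass when low oxygen replicate 2 was dropped (-0.51, adjusted p = 0.0853, the highest of 10 alternatives whose lowest was 0.0052). AOP1 fell from 5.26 and 5.56 to 4.42 and 4.15 (limma adjusted p = 0.0013). Its low oxygen values lay below the arrays' lower quartile, so the difference of -1.12 (SE 0.14) is limited by signal over background. AT3G12900 and AOP3 did not pass, with differences of 0.03 and 0.14 (adjusted p = 0.9035 and 0.3515).

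The ACC oxidase gene measured by name, AT1G12010, did not pass. It stood at 9.54 and 8.88 at normal oxygen and at 9.68 and 9.54 at low oxygen, with a log2 difference of 0.40 (SE 0.21, limma adjusted p = 0.2107). The normal oxygen replicates were 0.66 apart, and without normal oxygen replicate 1 the difference was 0.73 and passed (adjusted p = 0.0045). Of the SRG1 group, AT1G78550 stood at 6.81 and 6.61 (adjusted p = 0.5832), and AT1G17010 was weak in both groups.

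**Figure D4:**
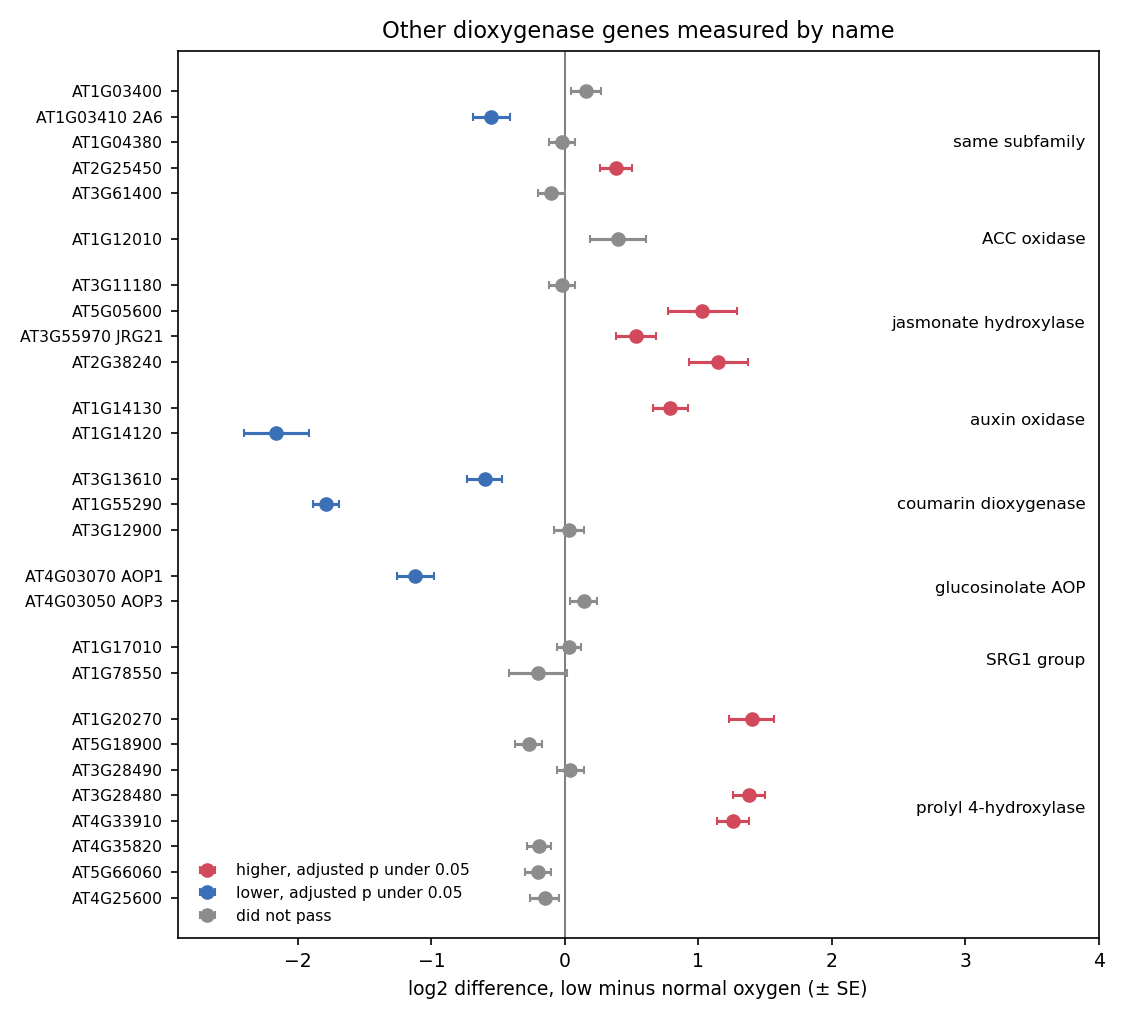
Log2 difference between low and normal oxygen, with SEs from limma, for 27 dioxygenase genes outside the 10, grouped by family. Red genes rose and blue genes fell at an adjusted p under 0.05, and grey genes did not pass. The values run from -2.16 for AT1G14120 to 1.40 for AT1G20270, all below the 5.45 of AT5G43450.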

How the data were processed

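The deposited table holds log2 expression values for 22810 probe sets on 4 arrays, and RMA and limma are named, without versions, in the submitters' processing notes. RMA corrects background, quantile-normalises arrays and summarises probes, so a shift common to every transcript is removed. After 64 control probe sets were left out, 22746 were fitted with limma 3.58.1 (R 4.3.3, functions lmFit and eBayes, 2-sided, Benjamini-Hochberg over all, threshold 0.05), with 2 arrays per group and no block. SEs come from this fit, which has 2 residual and 4.63 prior degrees of freedom. Exactly 1 gene was given for 13513 probe sets, several for 503, and none was listed for 8730. Of the 13513, 13436 matched the RefSeq table of assembly TAIR10.1 by gene ID. A gene with several probe sets was read from the one with the highest mean. Genome coordinates of that table served only to put protein-coding genes in order along the chromosomes, and no sequences were used.

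The genes and lists were chosen with earlier results of these data known. All 10 genes are named, and each further list gives up to 2 genes per direction by size of change, or 1 as values, and other genes are examples picked with their values in view. Alternatives varied the prior, normalization, block, arrays, minimum level (6), threshold and probe sets. On simulated data with 200 changed probe sets, 4, 40, 48 and 50 of 50 were recovered at log2 changes of 0.5, 1, 2 and 3, with 7 false among 149 calls. In the real data 7593 probe sets passed, which makes the Benjamini-Hochberg cut less strict. The simulated recoveries therefore do not carry over to the real fit.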

Additional observations from a re-analysis of the deposited data

How the results depend on the processing

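The median log2 difference of the 10 genes, 0.06, stayed within the spread between replicates (0.27) in all 8 alternatives run for it, with a range of -0.01 to 0.24 over the arrays left out in turn. All 78 alternative values of single members moved by no more than the replicate SD, which for arrays left out holds by construction. Each member has 1 probe set, so averaging probe sets could change nothing, and a minimum level leaves a gene's own difference as it is. Only the normalization settings could thus have moved single members further than that SD. The 7593 calls over all probe sets became 2385 with a log2 difference of at least 1 as well, and ran from 5375 to 7001 without each array, with the lone array of a group taken to vary as the other group does. The 13 calls among other dioxygenase genes became 8 at an adjusted p under 0.01 and 8 with a log2 difference of at least 1, and ran from 8 to 14 without each array. AT5G18900, a prolyl 4-hydroxylase gene at -0.27, passed after a second quantile normalization (-0.31, adjusted p = 0.0484). Both groups use the same replicate numbers, but deviations of same-numbered arrays had a correlation of 0.02, and no label pairs them. With the replicate block, 6939 probe sets and 11 of the other dioxygenase genes passed, and AT2G25450 (adjusted p = 0.0943) and JRG21 (adjusted p = 0.0823) did not. RMA values carry no detection call, so differences of weak probe sets such as AT5G43440 and AT2G30830 are limited by signal over background.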
